A study of Rattus norvegicus with 10 samples.

Results

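Liver transcripts of the receptor PPAR alpha and of 7 of its classical target genes were compared between unirradiated and irradiated rats. The 8 genes (Ppara, Cpt1a, Ehhadh, Pdk4, Angptl4, Fgf21, Acot1 and Vnn1) were found through the accession that each probe carried. They are 8 of 13426 genes with a symbol, and each was represented by 1 probe. All 8 probes were well above background on all 10 arrays. The arrays held liver RNA of male Wistar rats, 1 array per rat, 24 h after irradiation. Control rats (n = 3) received 0 Gy, and TBI rats (n = 3) received 6.5 Gy of total-body irradiation from a 60Co source. Rats of the MASM + TBI group (n = 4) were given MASM, a derivative of the plant alkaloid matrine, into the stomach at 30 mg/kg a day for 3 days before the same irradiation. No array of rats given MASM without irradiation was analysed here, and the age of the rats is not given in the sources used here. The labels state 6.5 Gy, whereas the text of the study names another dose.

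PPAR alpha is a nuclear receptor that binds fatty acids and, as a pair with RXR, switches on genes for burning fat, above all in the fasted liver. Fatty acids are activated to acyl-CoA, carried into mitochondria by the carnitine shuttle and shortened by beta-oxidation, while peroxisomes handle very long chains and microsomal Cyp4a enzymes attack the far end of the chain. The receptor pair binds DR1 elements, repeats of the half-site AGGTCA with 1 base between them.

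The sample labels set the groups used here. The column names under a heat map of the study place the control arrays under TBI and the TBI arrays under control, and with that placement every difference between these groups would change sign and each MASM + TBI comparison would have the other group as its reference. In the groups as labelled, Gdf15, a stress-induced secreted factor, was 19.2-fold higher in TBI rats than in control rats (log2 4.26, adjusted p = 0.00283), a log2 difference that was 2.89 after normexp background correction. Of 7 T and B lymphocyte markers with a probe, 3 passed as lower in each irradiated group (Cd3e, Cd3g and Cd79b). Over all probes 5.63% passed for TBI and 2.99% for MASM + TBI. These 3 were well above background on 0, 6 and 3 of the 10 arrays. In TBI rats only Cd4 of the list was higher (0.71, adjusted p = 0.285). The summed level of the list lay at 9.28 to 9.66 (log2) in control rats, 8.31 to 8.92 in TBI rats and 7.85 to 8.66 in MASM + TBI rats. All 9 hepatocyte markers were bright on each of the 10 arrays, with a summed level of 20.12 to 20.35 over all rats. Of 6 fat cell markers with a probe, which include Cidec, 1 was higher and 1 lower in TBI rats, and the defining Adipoq, Lep and Retn were well above background on 0 arrays. Of 5 muscle markers, Ckm, Myh7, Myl1 and Tnnt3 were also well above background on 0 arrays. Of 5 stellate cell markers Lrat alone passed, lower in both irradiated groups (-0.62, adjusted p = 0.0116 for TBI, and -0.60, adjusted p = 0.0147 for MASM + TBI). Reln (0.40 and 0.12) and Col1a1 (0.01 and 0.12) went the other way without passing, and Des and Pdgfrb were lower without passing. The summed level of the stellate list was 12.05 to 12.40 in control, 11.88 to 12.24 in TBI and 11.80 to 12.07 in MASM + TBI rats. Of 4 erythroid markers Ahsp alone passed, lower in MASM + TBI rats (-1.39, adjusted p = 0.0385). Slc4a1 went the other way without passing (1.53 in TBI and 0.98 in MASM + TBI rats), and Alas2 and Hbb were lower without passing. The summed level of the erythroid list was 11.02 to 12.31 in control, 10.42 to 11.44 in TBI and 10.30 to 10.85 in MASM + TBI rats. Calls among fat cell, stellate and erythroid markers stand beside the same shares of all probes as above. The summed level of 6 Kupffer cell markers was 15.52 to 16.03 in control, 15.51 to 16.40 in TBI and 15.18 to 15.49 in MASM + TBI rats, the last below all other rats. For 5 markers of sinusoidal endothelium it was 13.65 to 13.94 in control, 14.04 to 14.34 in TBI and 13.85 to 14.18 in MASM + TBI rats, so that TBI rats lay above all control rats. The fat cell list summed to 11.63 to 12.16, 12.07 to 12.64 and 11.61 to 12.00 in the same order, and the muscle list to 5.80 to 6.28, 4.67 to 5.44 and 5.27 to 6.08. The part of these cells in the values below was not tested. In whole liver RNA, fewer cells of a type and less RNA per cell cannot be told apart. Arrays of all 3 TBI rats filled slide 2 alone, so TBI and that slide cannot be told apart. The control arrays shared slide 1 with MASM + TBI rat 3, and the other 3 MASM + TBI arrays were on slide 3.

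The promoters of Cpt1a, Ehhadh and Pdk4 are shown because these 3 genes differed from control in both irradiated groups before adjustment for multiple testing. The sequences are RefSeq's for GRCr8, from 250 bases before the annotated start to 20 bases after it, 5′ to 3′ on the strand of the gene. Capitals mark the windows closest to the DR1 motif AGGTCANAGGTCA on either strand.
Cpt1a: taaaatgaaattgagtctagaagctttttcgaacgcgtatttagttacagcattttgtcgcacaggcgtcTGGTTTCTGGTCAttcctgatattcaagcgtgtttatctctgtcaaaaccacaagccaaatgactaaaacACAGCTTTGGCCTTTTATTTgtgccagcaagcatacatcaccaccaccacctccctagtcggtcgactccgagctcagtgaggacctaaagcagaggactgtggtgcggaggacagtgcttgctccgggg
Ehhadh: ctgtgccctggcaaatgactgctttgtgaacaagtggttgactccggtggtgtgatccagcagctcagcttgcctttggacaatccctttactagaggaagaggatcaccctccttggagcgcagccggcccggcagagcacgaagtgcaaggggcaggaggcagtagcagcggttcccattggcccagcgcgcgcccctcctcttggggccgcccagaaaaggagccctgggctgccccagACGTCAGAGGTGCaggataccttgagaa
Pdk4: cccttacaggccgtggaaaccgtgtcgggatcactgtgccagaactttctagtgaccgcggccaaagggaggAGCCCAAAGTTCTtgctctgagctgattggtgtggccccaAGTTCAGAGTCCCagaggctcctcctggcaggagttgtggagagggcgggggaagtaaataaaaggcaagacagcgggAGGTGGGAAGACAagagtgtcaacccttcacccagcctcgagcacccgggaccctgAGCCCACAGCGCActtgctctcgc
The Cpt1a sequence lies at chr1:209995910-209996179 on the plus strand, the Ehhadh sequence at chr11:92746159-92746428 on the plus strand, and the Pdk4 sequence at chr4:34568310-34568579 on the minus strand. Ehhadh came closest to the motif, with 3 mismatches in a window starting 8 bases before the annotated start. Cpt1a had 3 windows and Pdk4 4 windows at 4 mismatches, some of them overlapping. Over promoters of 300 bases, 24.9% of all 33469 had a window with 3 or fewer mismatches and 80.3% one with 4 or fewer. A promoter was found for 7 of the 8 genes, all but Vnn1, and 0 of the 7 held an exact half-site, against 16.2% of all promoters. The absence of these letters from such a short window says nothing on sites elsewhere.

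The receptor itself had lower values after TBI, short of the adjusted threshold. Ppara signal on the log2 scale was 9.43, 9.08 and 9.41 in control rats 1, 2 and 3, and 8.61, 8.56 and 8.93 in TBI rats 1, 2 and 3. No TBI rat reached the lowest control rat. In MASM + TBI rats 1 to 4 it was 9.07, 8.45, 9.47 and 9.42, so that rat 4 lay within the control range, rat 3 just above it, rat 1 just below it and rat 2 below every other animal. The TBI mean was 1.53-fold lower (log2 difference -0.61, SE 0.26, 95% interval -1.21 to -0.02), with an unadjusted p of 0.0454 and an adjusted p of 0.203 in limma. Between MASM + TBI and TBI rats the difference was 0.40 on the log2 scale (SE 0.24, interval -0.15 to 0.96, adjusted p = 0.451). Without MASM + TBI rat 2 it was 0.62 (adjusted p = 0.16) and met the study's threshold of an unadjusted p under 0.05 with at least 1.5-fold.

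**Figure D1:**
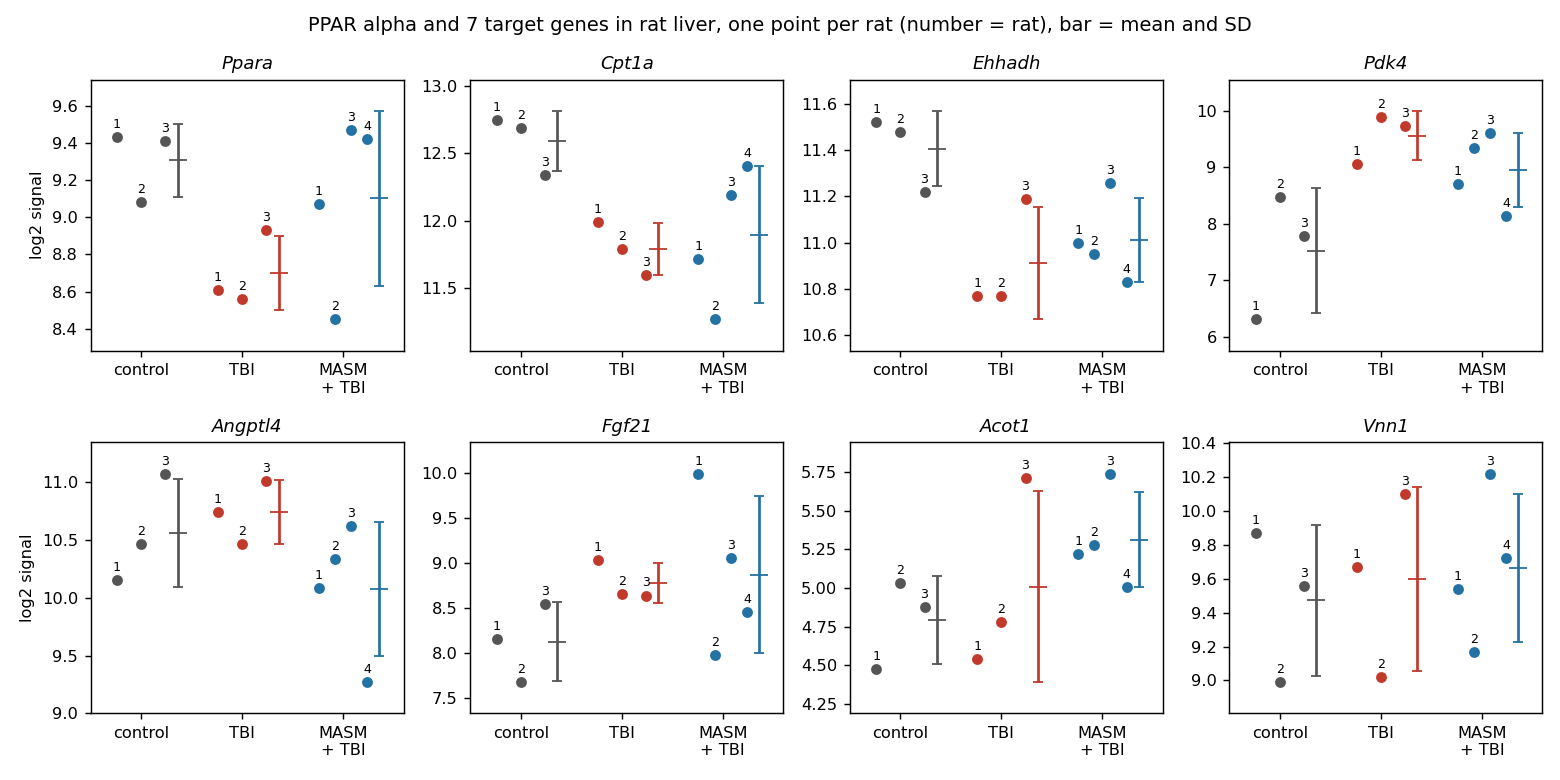
Log2 signal (vertical axes) of Ppara and its 7 targets in each rat of the 3 groups, with rat numbers beside the points and the mean and SD at the right of each group (n = 3, 3 and 4). Ppara, Cpt1a and Ehhadh lay lower in every TBI rat than in every control rat, Pdk4 and Fgf21 lay higher, and the other 3 overlapped.

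Cpt1a encodes carnitine palmitoyltransferase 1A, the rate-setting step of fatty acid entry into liver mitochondria. Its log2 signal was 12.75, 12.69 and 12.34 in the control rats, 11.99, 11.79 and 11.60 in the TBI rats, and 11.72, 11.27, 12.19 and 12.41 in the MASM + TBI rats. All TBI rats were below all control rats, and of the MASM + TBI rats only rat 4 lay in the control range. The difference from control was -0.80 for TBI (SE 0.28, 1.74-fold lower, adjusted p = 0.135) and -0.70 for MASM + TBI (SE 0.26, 1.62-fold lower, adjusted p = 0.221). Between the irradiated groups it was 0.10 (interval -0.50 to 0.70). Without control rat 1, control rat 2 or TBI rat 3 the unadjusted p for TBI was 0.0619, 0.0561 and 0.0662, against 0.0204 with all rats.

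Ehhadh, the bifunctional enzyme of peroxisomal beta-oxidation, had the smallest spread among rats. It measured 11.52, 11.48 and 11.22 in control rats, 10.77, 10.77 and 11.19 in TBI rats, and 11.00, 10.95, 11.26 and 10.83 in MASM + TBI rats. TBI rat 3 lay just under control rat 3, and MASM + TBI rat 3 just above it. The log2 difference from control was -0.50 for TBI (SE 0.16, 1.41-fold lower, adjusted p = 0.105) and -0.40 for MASM + TBI (SE 0.15, 1.32-fold lower, adjusted p = 0.211). Leaving out TBI rat 3 gave -0.64 and an adjusted p of 0.0441 for TBI.

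Pdk4 had the largest log2 difference from control among the 8 genes. It encodes a kinase that shuts the pyruvate dehydrogenase complex and so spares glucose when fat is burnt. Control rats had log2 signals of 6.31, 8.47 and 7.79, TBI rats of 9.06, 9.88 and 9.73, and MASM + TBI rats of 8.70, 9.34, 9.60 and 8.14. Every TBI rat exceeded every control rat, while MASM + TBI rat 4 fell between 2 control rats. The 3 control rats themselves spanned 2.16 on the log2 scale, against 0.82 for the TBI rats. The difference from control was 2.03 for TBI (SE 0.57, interval 0.73 to 3.34, 4.09-fold higher, adjusted p = 0.0793) and 1.42 for MASM + TBI (SE 0.54, 2.68-fold higher, adjusted p = 0.219). With each array scaled to its 75th percentile, or with dim probes left out, the adjusted p for TBI was 0.0380 and 0.0473. By the methods' t-test the Pdk4 difference for TBI had an adjusted p of 0.365, and after normexp background correction it was 1.33 on the log2 scale (adjusted p = 0.0557 in limma). Without control rat 1 the differences were 1.43 (adjusted p = 0.158) and 0.82 (adjusted p = 0.431). On slide 1, MASM + TBI rat 3 stood 2.08 above the mean of the 3 control rats for Pdk4, and differed from it by -0.40 for Cpt1a and -0.15 for Ehhadh, a comparison of 1 rat without a test.

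Of the 2 secreted factors, Angptl4 is an inhibitor of lipoprotein lipase. Its log2 signal was 10.15, 10.46 and 11.07 in control rats, 10.74, 10.46 and 11.01 in TBI rats, and 10.08, 10.33, 10.62 and 9.27 in MASM + TBI rats. The groups overlapped, with MASM + TBI rat 4 the lowest of all. The log2 difference was 0.18 for TBI against control (adjusted p = 0.803) and -0.66 for MASM + TBI against TBI (SE 0.34, interval -1.44 to 0.11, adjusted p = 0.371). The latter was -0.39 without MASM + TBI rat 4 and ranged from -0.84 to -0.39 over the alternatives. It met the study's threshold without MASM + TBI rat 3 and with slide as a random block.

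Fgf21 encodes a hormone of the fasted and stressed liver. It measured 8.16, 7.68 and 8.55 in control rats, 9.03, 8.66 and 8.64 in TBI rats, and 9.99, 7.98, 9.06 and 8.46 in MASM + TBI rats. TBI rats did not overlap control rats, whereas the MASM + TBI rats spread over 2.00 on the log2 scale and held the highest value of all. TBI was 0.64 above control (SE 0.47, interval -0.42 to 1.71, adjusted p = 0.445) and MASM + TBI 0.74 above it (adjusted p = 0.464). Leaving out rat 1 of the MASM + TBI group gave 0.37 for the latter and leaving out its rat 2 gave 1.04, while the TBI difference was 0.42 without control rat 2.

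Acot1, a thioesterase that frees fatty acids from acyl-CoA, was the dimmest probe of the 8. Its log2 signal was 4.48, 5.03 and 4.88 in control rats, 4.54, 4.78 and 5.71 in TBI rats, and 5.22, 5.28, 5.74 and 5.01 in MASM + TBI rats. TBI rat 3 and MASM + TBI rat 3 were the highest. The adjusted p was 0.727 for TBI and 0.444 for MASM + TBI against control. Acot1 and Acot2 are close copies, so the probe may read both.

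Vnn1, a pantetheinase that releases pantothenate, had the smallest difference between TBI and control. It was 9.87, 8.99 and 9.56 in control rats, 9.67, 9.02 and 10.10 in TBI rats, and 9.54, 9.17, 10.22 and 9.72 in MASM + TBI rats. The groups overlapped almost fully, and the log2 differences of 0.12 for TBI and 0.19 for MASM + TBI from control were below the spread within any group (adjusted p = 0.873 and 0.899).

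Against the whole array, 0 of the 8 genes passed an adjusted p of 0.05 in TBI against control, where 5.63% of all 40945 probes passed. At an unadjusted p under 0.05 without a fold limit 4 of the 8 passed (23.5% of all probes), Pdk4 higher and Ppara, Cpt1a and Ehhadh lower. The study's threshold, an unadjusted p under 0.05 with at least 1.5-fold, was met by 3 of the 8 (12.6% of all probes), namely Pdk4, Ppara and Cpt1a, of which Ppara no longer met it with 75th percentile scaling or normexp background correction. With the methods' t-test, Ppara and Cpt1a met it and Pdk4 did not. Groups did not overlap for 5 of the 8 (30.3% of all probes), and the exact permutation p of each was 0.1, the smallest that 3 rats against 3 allow. The median log2 difference was 0.15 over the 8 genes and -0.03 over all probes, with 5 genes above 0 and 3 below.

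For MASM + TBI against control, 0 of the 8 passed after adjustment (2.99% of all probes), 3 at the unadjusted p (17% of all probes) and 2 at the study's threshold (8.06% of all probes), Pdk4 and Cpt1a. In MASM + TBI against TBI, 0 of the 8 passed after adjustment (1.63% of all probes), 0 at the unadjusted p (17% of all probes) and 0 at the study's threshold (7.98% of all probes). Intervals for that direct comparison reached 0.96 for Ppara, 0.70 for Cpt1a and 0.44 for Ehhadh upwards, and -1.83 for Pdk4 downwards. With 3 and 4 rats, differences up to these sizes lay within the intervals. The 2 comparisons with control share the control rats, and all 3 share groups.

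**Figure D2:**
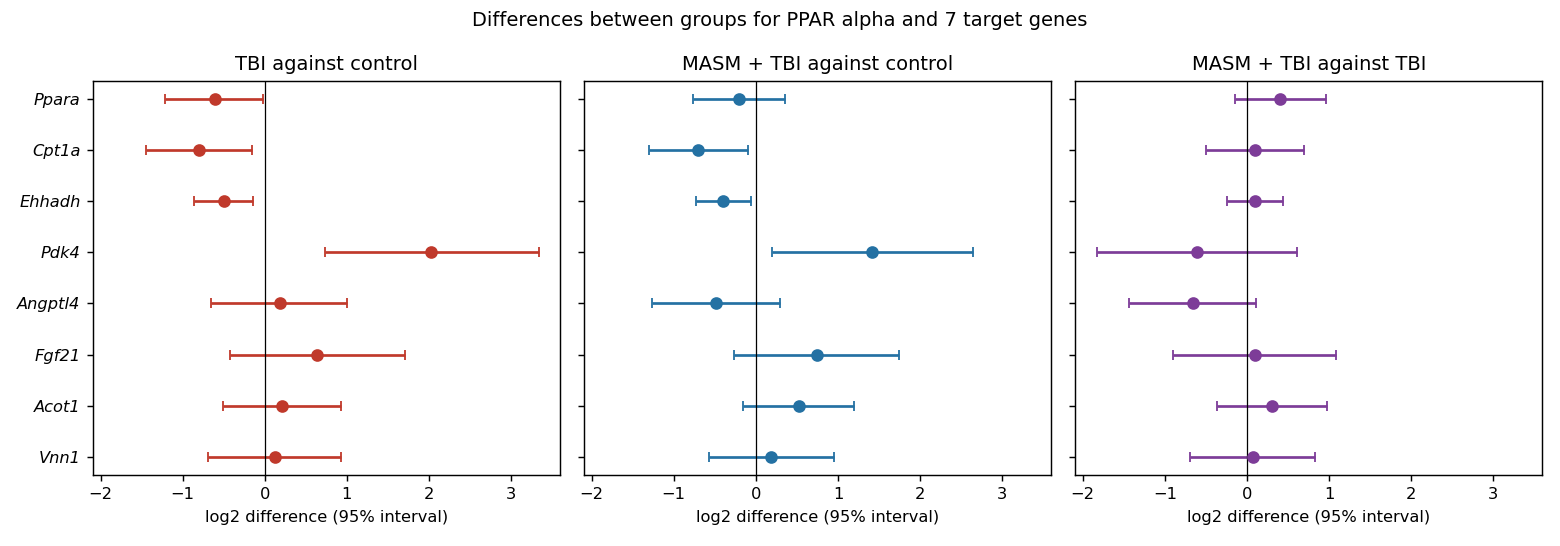
Log2 differences (horizontal axes) of Ppara and its 7 targets with 95% intervals from limma in the 3 comparisons of 3 control, 3 TBI and 4 MASM + TBI rats. Intervals of Ppara, Cpt1a, Ehhadh and Pdk4 excluded 0 in TBI against control before adjustment, and all 8 intervals covered 0 in MASM + TBI against TBI.

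Taking the mean of both irradiated groups against control, the log2 difference was 1.73 for Pdk4 (SE 0.49, adjusted p = 0.0859, exact permutation p over 7 against 3 rats 0.0167; 1.12, adjusted p = 0.208 without control rat 1), -0.75 for Cpt1a (SE 0.24, adjusted p = 0.12, exact 0.0333) and -0.45 for Ehhadh (SE 0.13, adjusted p = 0.101, exact 0.025). After adjustment 0 of the 8 passed (4.82% of all probes), while Pdk4, Cpt1a and Ehhadh passed unadjusted (20.7% of all probes) and Pdk4 and Cpt1a at the study's threshold (9.31% of all probes). The methods' t-test left 0 of the 8 after adjustment in every comparison. Ppara had -0.41 (adjusted p = 0.34).

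Among rats, Cpt1a and Ppara were lowest together in MASM + TBI rat 2 and highest of their group in MASM + TBI rats 3 and 4. Control rat 1 combined the highest Cpt1a with the lowest Pdk4. MASM + TBI rat 4 had the highest Cpt1a and the lowest Pdk4 and Angptl4 of its group.

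**Figure D3:**
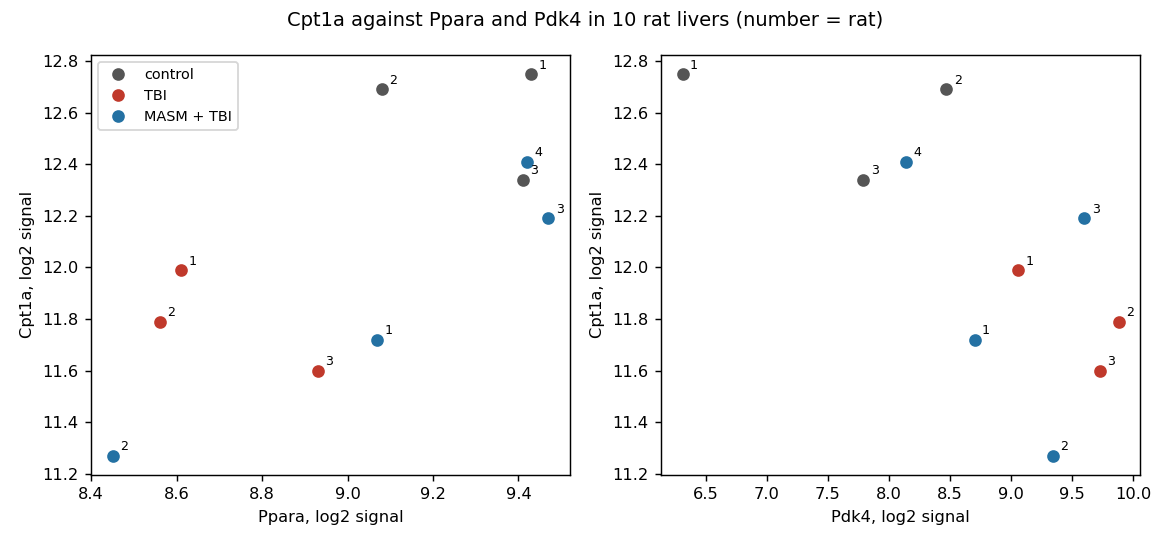
Log2 signal of Cpt1a (vertical axes) against Ppara (left) and Pdk4 (right), 1 point per rat with its number, coloured by group. MASM + TBI rat 2 had the lowest Cpt1a (11.27) and Ppara (8.45), and control rat 1 the highest Cpt1a (12.75) and lowest Pdk4 (6.31).

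Genes with the most similar pattern over the 10 arrays, among 8438 genes well above background on all arrays, were ranked by Pearson's r as a description without a test. Closest to Pdk4 were Ier2 (0.946), an immediate early gene, Vps37b (0.944) and Slc25a25 (0.940). Closest to Cpt1a were Rbbp4 (0.927), Inmt (0.904) and Golph3l (0.904), to Ppara Nme4 (0.933), Slc10a7 (0.917) and Hspa13 (0.889), and to Ehhadh Cyp2j4 (0.942), Thbs2 (0.933) and Abcb11 (0.933), the bile salt export pump. For Fgf21 they were Bpifa1 (0.869), Asns (0.852), the asparagine synthetase of the amino acid stress response, and Prkar1b (0.849). Acot1 ran with Aqr (0.950), Schip1 (0.945) and Decr2 (0.942), Angptl4 with Esam (0.921), Zfyve27 (0.891) and Mavs (0.877), and Vnn1 with Tpcn1 (0.901), Prkar1a (0.898) and Fv1 (0.879).

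The wider fat oxidation programme was described with 12 lists of 136 further genes, and probes with a symbol were found for 119 of them. In TBI against control 14 of the 119 passed an adjusted p of 0.05 (11.8%, against 5.63% of all probes), 9 higher and 5 lower. MASM + TBI against control gave 10 (8.4%, against 2.99%), 7 higher and 3 lower, and MASM + TBI against TBI gave 0 (against 1.63%), with 15 at an unadjusted p under 0.05 (17% of all probes). Both irradiated groups together gave 17 (14.3%, against 4.82%), 11 higher and 6 lower. The median log2 difference over the 119 genes was 0.02 for TBI against control and 0.03 for MASM + TBI against control, beside -0.03 and 0 over all probes. After adjustment, the methods' t-test left 0 of these genes for either irradiated group against control. With only the control and TBI rats in the model, 3 of the 14 TBI calls held (Acsm3, Cpt1b and Gdf15). With 75th percentile scaling, the TBI call of Hadh and the MASM + TBI calls of Slc27a1, Crat, Abcd2, Pdk2 and Cidec were lost. Normexp background correction ended the TBI calls of Nrip1, Crat and Hadh and the MASM + TBI call of Abcd2. Slide as a fixed block ended the MASM + TBI calls of Slc27a1, Acsl5, Fabp2, Crat, Abcd2, Aldh1a1, Pdk2 and Cidec.

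Of the 12 lists, omega-oxidation in microsomes held the largest share called in TBI rats, with 3 of 9 genes higher and 0 lower, where 5.63% of all probes passed. Cyp4a8, a fatty acid omega-hydroxylase, had log2 signals of 13.85, 12.25 and 12.70 in control rats, 15.01, 15.02 and 14.35 in TBI rats, and 14.13, 14.05, 14.65 and 14.69 in MASM + TBI rats. All irradiated rats exceeded all control rats. It rose 3.63-fold in TBI rats (log2 1.86, SE 0.40, adjusted p = 0.0362), and was 1.44 higher in MASM + TBI rats (adjusted p = 0.0878). Cyp4a3 rose by 1.09 in TBI rats (adjusted p = 0.0496). Its near-copy Cyp4a2 was 2.03 higher (adjusted p = 0.0548), and passed for both irradiated groups together (1.84, adjusted p = 0.049). That call was lost on leaving out any of 8 single rats, all but control rat 1 and TBI rat 3 (up to 0.179). With the mean over a gene's probes it was also lost (0.0502), although Cyp4a2 itself has only 1 probe and kept its values there. Probes may not separate Cyp4a2 and Cyp4a3. Control rat 1 had the highest Cyp4a2, Cyp4a3 and Cyp4a8 of the control rats (12.29, 14.26 and 13.85), although its Pdk4 was the lowest. Leaving out any of 7 single rats, among them control rats 2 and 3 and TBI rats 1 and 2, lost the Cyp4a8 call (adjusted p up to 0.115), and 9 single rats, all but control rat 1, did so for Cyp4a3 (up to 0.142). Aldh1a1, an aldehyde dehydrogenase that also makes retinoic acid, rose 2.68-fold with TBI alone (adjusted p = 0.0195) and 3.20-fold with MASM + TBI (adjusted p = 0.0101). Among single rats left out, control rat 2 and TBI rat 2 ended its TBI call (adjusted p up to 0.0555), as did a model of control and TBI rats alone (0.0883).

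**Figure D4:**
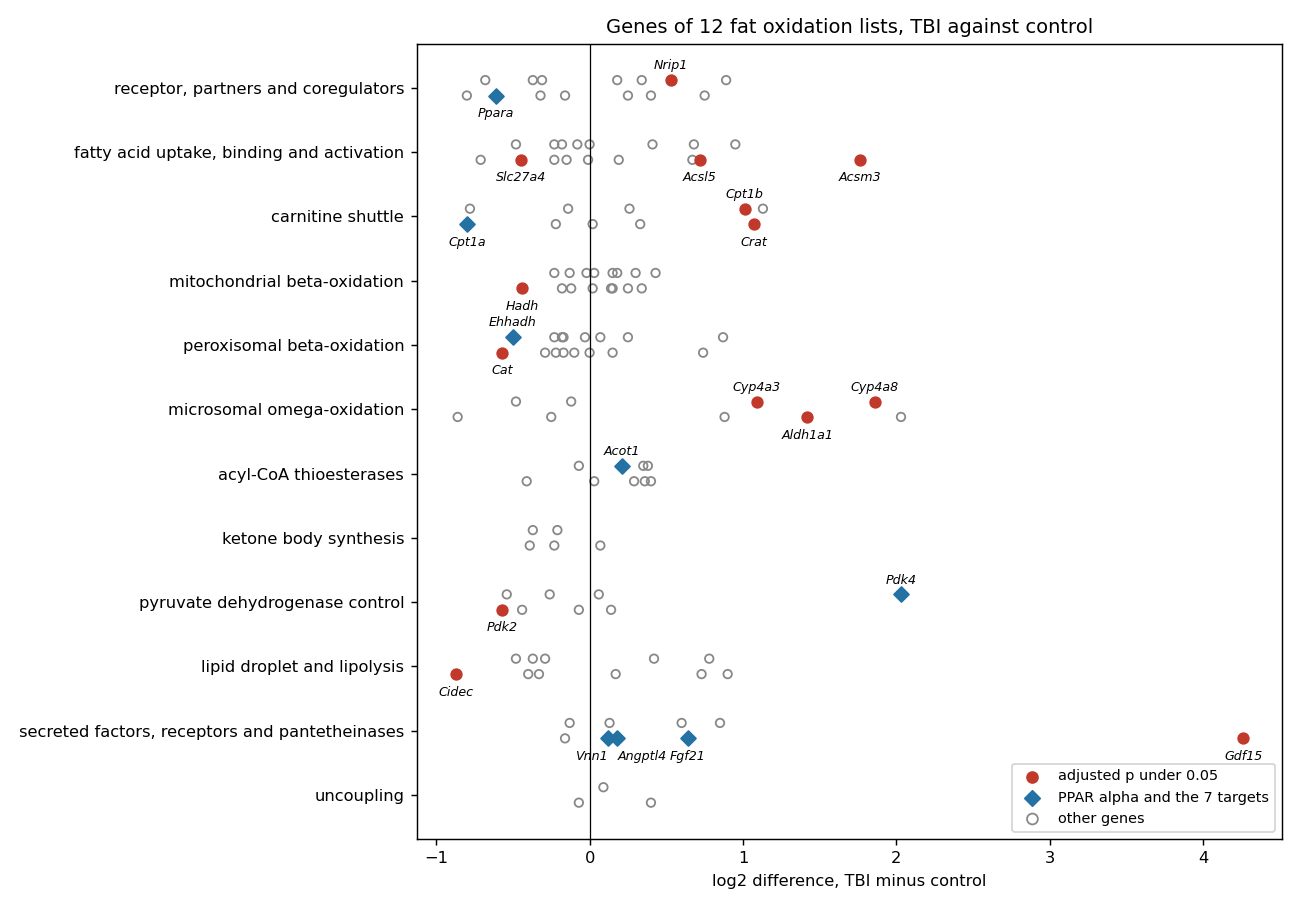
Log2 difference between TBI and control rats (horizontal axis) for every measured gene of 12 fat oxidation lists (rows), with genes at an adjusted p under 0.05 filled red and Ppara and its 7 targets as blue diamonds. Gdf15 (4.26), Cyp4a8 (1.86) and Acsm3 (1.76) lay farthest to the right of the red points, Cidec (-0.87) farthest to the left.

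In the carnitine shuttle 2 of 9 further genes were called in each irradiated group, both higher, while Cpt1a had lower values. Over all probes 5.63% passed for TBI and 2.99% for MASM + TBI. Cpt1b, the muscle form of the enzyme, was 6.53, 6.54 and 6.64 in control rats, 7.57, 7.60 and 7.57 in TBI rats, and 7.34, 7.35, 7.60 and 7.05 in MASM + TBI rats, so control rats stood apart from all others. It rose 2.01-fold with TBI alone (log2 1.01, SE 0.13, adjusted p = 0.0051) and 1.69-fold with MASM + TBI (adjusted p = 0.0158), and a second, dimmer probe that was well above background on 4 of 10 arrays gave 1.10 for TBI (adjusted p = 0.0357) and 0.54 for MASM + TBI (adjusted p = 0.261). After normexp background correction the log2 differences of the first probe were 0.51 and 0.36. The TBI call held with each single rat left out (adjusted p up to 0.0231). The MASM + TBI call was lost without control rat 2, control rat 3 or MASM + TBI rat 1 (adjusted p up to 0.0652). Crat, carnitine acetyltransferase, rose by 1.07 with TBI alone (adjusted p = 0.0484) and by 1.10 with MASM + TBI (adjusted p = 0.0491), calls that among single rats only the omission of control rat 3 left in place. After normexp background correction its log2 differences were 0.37 and 0.43. Slc25a20, the carnitine-acylcarnitine carrier, passed only for both irradiated groups together (0.31, adjusted p = 0.044), a call lost on leaving out any rat but MASM + TBI rat 2 (adjusted p up to 0.15).

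Uptake and activation genes gave 3 calls of 17 in each irradiated group (5.63% and 2.99% of all probes). Acsl5, an acyl-CoA synthetase, rose 1.65-fold in both (adjusted p = 0.0137 and 0.0143), from 13.33, 13.19 and 12.93 in control rats to 13.78, 13.84 and 13.98 in TBI rats and 13.96, 13.77, 13.80 and 13.96 in MASM + TBI rats. Its TBI call held with each single rat left out, and the other was lost without control rat 2 (adjusted p = 0.0536). Acsm3, a medium-chain acyl-CoA synthetase, rose 3.39-fold in TBI rats (adjusted p = 0.0175), a call lost without control rat 1 or 2 (adjusted p up to 0.0577). Fabp2, a fatty acid binding protein of the intestine, rose by 0.82 in MASM + TBI rats (adjusted p = 0.0425), kept only without TBI rat 1 or TBI rat 2 (up to 0.12 otherwise). Both called transporters were lower, Slc27a4 by -0.45 in TBI rats (adjusted p = 0.0247, up to 0.0856 without control rat 1, control rat 3 or TBI rat 2) and Slc27a1 by -0.43 in MASM + TBI rats (adjusted p = 0.0263, up to 0.103 with 5 single rats left out). After normexp background correction Slc27a4 differed by -0.21. The second, dimmer probes of both gave -0.30 (adjusted p = 0.0689) and -0.22 (adjusted p = 0.65), and with the mean over a gene's probes the Slc27a1 call was lost (-0.33, adjusted p = 0.218).

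In TBI against control, beta-oxidation gave 1 call among 16 mitochondrial genes and 1 among 15 peroxisomal genes other than Ehhadh, where 5.63% of all probes passed. Hadh, the short-chain hydroxyacyl-CoA dehydrogenase, fell by 0.44 in TBI rats (adjusted p = 0.0469), a call lost on leaving out any rat but TBI rat 1 (up to 0.137), and a second probe gave -0.24 (adjusted p = 0.416). The mitochondrial list ranged from -0.44 to 0.43. In peroxisomes Cat, the catalase that removes hydrogen peroxide, fell by 0.57 in TBI rats (adjusted p = 0.0369). It stood at 13.47, 13.24 and 13.34 in control rats, 12.97, 12.59 and 12.79 in TBI rats, and 12.76, 12.75, 12.91 and 13.02 in MASM + TBI rats, with no irradiated rat in the control range. With any of 7 single rats left out, each control rat among them, the adjusted p for Cat reached up to 0.105. Abcd2 passed in MASM + TBI against control (adjusted p = 0.0435) but was well above background on 0 arrays, so no fold is given.

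Among genes that control pyruvate dehydrogenase, 1 of 7 others than Pdk4 was called in each irradiated group, where 5.63% (TBI) and 2.99% (MASM + TBI) of all probes passed. Pdk2, the constitutive isoform, was 13.66, 13.67 and 13.93 in control rats, 13.11, 13.13 and 13.30 in TBI rats, and 13.04, 13.14, 13.20 and 13.03 in MASM + TBI rats. It fell by 0.57 with TBI alone (adjusted p = 0.019) and by 0.65 with MASM + TBI (adjusted p = 0.0118), where Pdk4 was 2.03 and 1.42 higher without passing. Without control rat 3 or TBI rat 2 the TBI call for Pdk2 was lost (adjusted p up to 0.0542). Its MASM + TBI call held with each single rat left out but was lost with slide as a fixed block. Cidec, a lipid droplet protein, fell by 0.87 with TBI alone (1.83-fold, adjusted p = 0.0173) and by 0.82 with MASM + TBI (adjusted p = 0.0222). Control rats had 10.61, 10.46 and 10.41, TBI rats 9.81, 9.32 and 9.76, and MASM + TBI rats 9.57, 9.58, 9.90 and 9.66. Its TBI call was lost without control rat 1 or 2 (up to 0.055), its MASM + TBI call without any control rat or MASM + TBI rats 1, 2 or 4 (up to 0.0738).

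**Figure D5:**
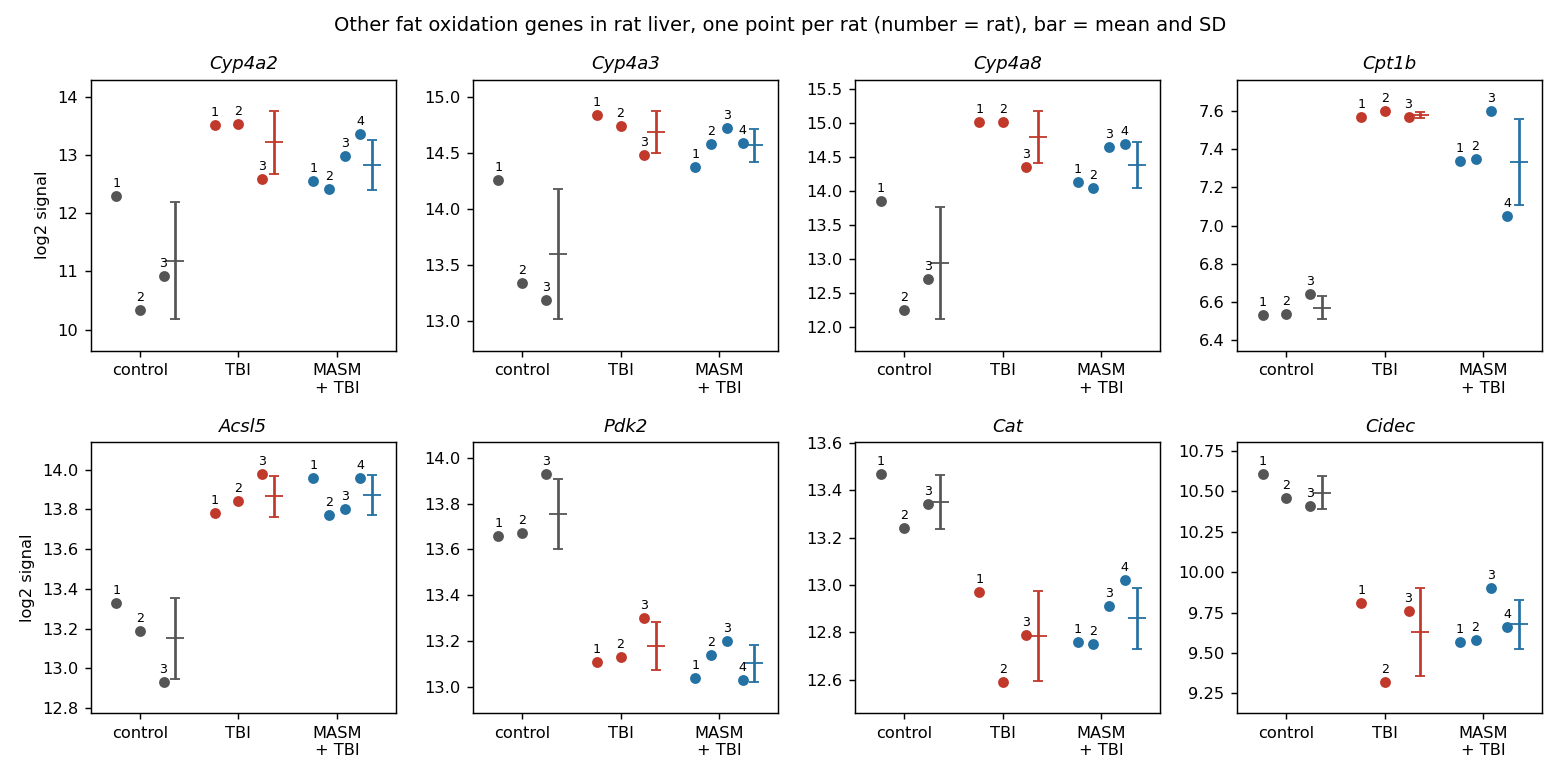
Log2 signal (vertical axes) of 8 further fat oxidation genes in each rat, with rat numbers and the mean and SD of each group (n = 3, 3 and 4). The genes were picked from those that passed in these same data, so their separation is no further result. Irradiated rats lie above the control rats for the Cyp4a genes, Cpt1b and Acsl5 and below them for Pdk2, Cat and Cidec. Over all probes, TBI and control rats did not overlap for 30.3%.

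Regulators gave 1 call of 13 in TBI rats, where 5.63% of all probes passed. Nrip1, a corepressor of nuclear receptors, rose by 0.53 (adjusted p = 0.0492), a call lost on leaving out any single rat (0.05 to 0.145), and its second probe gave 0.25 (adjusted p = 0.428). Ppargc1b, a coactivator of mitochondrial genes, passed only for both irradiated groups together, lower by -0.81 (adjusted p = 0.0387). Without 7 of the single rats, among them control rats 2 and 3, that adjusted p reached up to 0.139. No probe carried the symbol Rxra here.

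Thioesterases, ketone body synthesis and uncoupling gave 0 calls in any comparison by limma, with 2 of 8, 1 of 5 and 0 of 3 genes at an unadjusted p under 0.05 in TBI against control (23.5% of all probes). Among the uncoupling genes, Ucp1 and Ucp3 were well above background on 0 arrays, so their probes could hardly show a change. The smallest unadjusted p in TBI against control belonged to Acot12 among the thioesterases (-0.41, unadjusted p = 0.0105, adjusted p = 0.0981) and to Ucp2 among the uncoupling genes (0.40, unadjusted p = 0.287, adjusted p = 0.53). Gdf15, listed with the secreted factors, was 5.73, 6.64 and 6.23 in control rats, 10.18, 10.55 and 10.65 in TBI rats, and 10.36, 10.88, 10.60 and 8.97 in MASM + TBI rats. It rose 19.2-fold in TBI rats and 16.0-fold in MASM + TBI rats (adjusted p = 0.00283 and 0.00317), and after normexp background correction the log2 differences were 2.89 and 2.70, against 4.26 for TBI without it. MASM + TBI rat 4 was the lowest irradiated rat, as it was for Pdk4. Both calls held with each single rat left out.

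Genes that fasting raises without a part in fat oxidation gave 0 calls among 7 in any comparison by limma, with 2 at an unadjusted p under 0.05 in TBI against control (23.5% of all probes). These counts take the brightest probe of a gene. Irs2 and Acsl1 are named after their values were seen. A dimmer probe of Irs2, an insulin receptor substrate, passed in TBI against control (0.93, adjusted p = 0.0489) where the brightest gave 1.41 (adjusted p = 0.264). In the fat oxidation lists, a dimmer probe of Acsl1, an acyl-CoA synthetase, passed likewise (-0.31, adjusted p = 0.0411), where the brightest gave -0.23 (adjusted p = 0.309). Tat, tyrosine aminotransferase, was 1.53 higher in TBI rats (unadjusted p = 0.0085, adjusted p = 0.0885). Igfbp1, named after its values were seen, was 10.68, 12.49 and 10.91 in control rats, 13.41, 14.09 and 14.35 in TBI rats, and 13.81, 13.43, 14.41 and 10.28 in MASM + TBI rats. Its adjusted p was 0.167 in TBI rats, and MASM + TBI rat 4 lay below all control rats. Of 10 genes that feeding raises, Pklr, pyruvate kinase, fell by 1.22 with TBI alone (adjusted p = 0.0248) and by 1.39 with MASM + TBI (adjusted p = 0.0165). Scd, stearoyl-CoA desaturase, fell by 3.67 in MASM + TBI rats (adjusted p = 0.0355) and differed by -2.46 in TBI rats (adjusted p = 0.102). The TBI call of Pklr was lost without control rat 1, control rat 3, TBI rat 2 or TBI rat 3 (adjusted p up to 0.0859) and with only control and TBI rats in the model (0.0832), its MASM + TBI call without control rat 3 or MASM + TBI rat 4 (up to 0.0722). The Scd call was lost without any of 7 rats, control rats 1 and 3, TBI rat 1 and each MASM + TBI rat (up to 0.119), and the difference was -4.31 without control rat 2. With slide as a fixed block the MASM + TBI differences were -1.12 for Pklr (adjusted p = 0.221) and -3.08 for Scd (adjusted p = 0.329). The methods' t-test left an adjusted p of 0.27 and 0.25 for the Pklr calls and of 0.274 for the Scd call. Food intake of these rats was not analysed here, and the part of feeding in the values of Ppara and its targets was not tested.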

How the data were processed

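Liver RNA was labelled with Cy3 and hybridised to 1 single-colour Agilent array per rat (3 control, 3 TBI, 4 MASM + TBI). The authors deposited an intensity for each of 45018 spots, made with Feature Extraction 10.7.3.1, background-subtracted and not normalized between arrays, and a series table with the same intensities. Control spots (1639) and outlier spots (76 to 112 per array) were left out, and 0 spots were saturated. Intensities were put on the log2 scale from the deposited values, quantile normalized and averaged per probe. Of 41012 probes 40945 had a value on every array, 16950 carried a symbol through their accession, and the brightest probe stood for a gene. On control arrays 57.2% to 59.9% of spots were well above background, on TBI arrays 64.1% to 70.1% and on MASM + TBI arrays 56.2% to 60.2%. The number of rats limits the precision.

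Groups and replicate numbers came from the labels. A linear model with 3 group means was fitted to all probes with limma 3.58.1 in R 4.3.3, with Benjamini-Hochberg adjustment over all probes, and single genes were also compared by two-sided exact permutation. The model was tested on simulated data. The alternatives tried were 75th percentile scaling, normexp background correction (offset 50), the deposited table, leaving out dim probes, 2 groups per model, the methods' t-test (its form is not stated in the methods, and it was run as Welch's on log2 values with folds from linear means), a trended and robust prior, replicate and slide blocks, the mean over a gene's probes, and each rat left out. The genes and lists were chosen with earlier results of these data known. Named genes are the 8 genes, in each list every gene past an adjusted p of 0.05 in any comparison or else the one with the smallest p in TBI against control, and for each of the 8 the 3 most similar genes. Some genes that this rule takes are not reported here. Plots were drawn with matplotlib in Python. Promoters and symbols came from RefSeq, GRCr8, whereas the array design was annotated on an older assembly, so no position of a probe is given.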

Additional observations from a re-analysis of the deposited data

Results flagged for a closer look

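Among 35 named genes, 1 had a rat of the MASM + TBI group (n = 4) that stood apart from the other 3. Acsm3 had a log2 signal of 10.31 in MASM + TBI rat 4, where the nearest other rat of the group had 9.37. The gap was 0.855 of the group's range, above the critical value of 0.829. The value lay within the range of the TBI rats (10.07 to 10.56). Chance alone flags about 1 group in 20.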

How the results depend on the processing

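Of 8 genes, those with an adjusted p under 0.05 in TBI against control numbered 0 as reported and 1 (Pdk4) with 75th percentile scaling (adjusted p = 0.0380), with dim probes left out (0.0473) and with the replicate number as a block (0.0416). With slide as a random block they numbered 3 (Pdk4, 0.0260; Cpt1a, 0.0380; Ehhadh, 0.0270), but TBI lies wholly on 1 slide. For both irradiated groups against control they numbered 1 with dim probes left out, 1 with the replicate block and 3 with the random slide block. With 1 rat left out the count was 0 to 1 in these 2 comparisons and 0 to 0 in the other 2. Counts at the study's threshold with 1 rat left out were 1 to 3 for TBI, 0 to 2 for MASM + TBI against control, 0 to 1 for MASM + TBI against TBI and 1 to 3 for both irradiated groups. That count for MASM + TBI against control (2) became 1 with 75th percentile scaling, 0 with 2 groups per model, 0 with the methods' t-test, 1 with slide as a fixed block and 3 with the replicate block (Acot1 added). For TBI against control (3) it was 4 with 2 groups per model (Fgf21 added) and 2 with 75th percentile scaling, normexp and the methods' t-test. It was 1 for MASM + TBI against TBI with the random slide block and 1 for both irradiated groups with the methods' t-test.

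List genes called for TBI against control (14) became 3 with 2 groups per model, 0 with the methods' t-test, 7 with the replicate block and 36 with the random slide block. For MASM + TBI against control (10) they became 5 with 75th percentile scaling, 0 with the methods' t-test, 3 with the replicate block, 19 with the random and 2 with the fixed slide block. For MASM + TBI against TBI (0) they became 5 with 75th percentile scaling and 3 with the random slide block, and for both irradiated groups (17) 3 with the methods' t-test, 8 with the replicate block and 34 with the random slide block. With 1 rat left out the ranges were 5 to 12, 3 to 9, 0 to 2 and 6 to 16. Over all probes the calls numbered 2305 and 7458 with 75th percentile scaling in TBI against control, and 666 and 5459 in MASM + TBI against TBI. Correlations of deviations between equal replicate numbers lay from -0.125 to 0.169. Unequal numbers were not compared, so this does not settle whether the numbers pair the rats. The replicate block stands only as an alternative (it also ended the Scd call, adjusted p = 0.0783). The share of called probes that were higher was 43.3% in TBI against control and 24.3% with 75th percentile scaling, and 56% and 82.4% in MASM + TBI against TBI.

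The sign of some differences turned, where 0 of the 8 genes had passed in any comparison. MASM + TBI minus TBI was -0.01 for Ehhadh after normexp and -0.07 for Cpt1a with the replicate block. MASM + TBI minus control was 0.15 for Ppara and 0.06 for Angptl4 with slide as a fixed block. With 1 rat left out, TBI minus control ranged from -0.03 to 0.43 for Angptl4, -0.14 to 0.44 for Acot1 and -0.13 to 0.41 for Vnn1. MASM + TBI minus control ranged from -0.33 to 0.01 for Ppara and -0.06 to 0.38 for Vnn1. MASM + TBI minus TBI ranged from -0.07 to 0.31 for Cpt1a, -0.28 to 0.39 for Fgf21 and -0.22 to 0.32 for Vnn1. Both irradiated groups minus control ranged from -0.36 to 0.10 for Angptl4 and -0.09 to 0.35 for Vnn1. The cause was not tested. Of the single differences of the 8 genes in the 4 comparisons under the alternatives, 619 kept their direction and side of the threshold, 13 newly passed it and 16 turned sign.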
